A study of Mus musculus with 6 samples.

Results

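The genes described here encode the tight junctions and desmosomes that join epithelial cells, or regulators of the epithelial state. They were measured in mammary tumours of PyMT mice with and without serglycin. The list held 35 genes, named by symbol, and all 35 were found among the 22180 genes measured. It comprised 11 claudins, 5 other membrane proteins of the tight junction or its surroundings, 3 proteins of the tight junction plaque, 5 desmosomal cadherins, 7 desmosomal plaque proteins and plakins, and 4 epithelial regulators. Each gene was read from the probe set that the platform annotation assigns to it alone, and where a gene had more than 1 such probe set, from the brightest of them on average.

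The 6 tumours carry different numbers in their titles, and each was taken to come from a mouse of its own. Replicate numbers within a genotype were assigned here in the order of the series and pair no mice. Of these mice, 3 were PyMT+ SG-/-, which lack serglycin, the proteoglycan that packs the granules of many blood cells. The other 3 were PyMT+ SG+/-, which keep 1 intact copy. All 6 thus carried the PyMT transgene (the middle T oncogene of polyoma virus, under which mammary glands form tumours), and there were no mice with both serglycin copies intact. The labels give neither the promoter of the transgene nor the age of the mice. Whole breast tumour tissue was measured on whole-transcript arrays, 1 per tumour, as log2 values made with the robust multi-array average (RMA). Precision is limited by having 3 arrays per genotype. The question the comparison addresses here is whether junction genes of the tumour epithelium differ when serglycin is lost.

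Tight junctions seal the space between neighbouring epithelial cells near their apex. Claudins form the strands and set which ions pass, occludin and its relatives sit among them, and plaque proteins such as ZO-1 tie the strands to actin. Desmosomes are the spot welds of an epithelium: desmogleins and desmocollins bind across the gap, and plakoglobin, plakophilins and desmoplakin link them to keratin filaments. In mammary gland, simple luminal cells carry the claudin-rich tight junctions, while some desmosomal isoforms are typical of basal and stratified epithelium. Loss of these genes is part of the epithelial to mesenchymal transition, in which repressors of the Snail and Zeb families act on E-boxes in junction gene promoters.

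Upstream sequences are shown for 4 tight junction genes, so that 2 with such an E-box in the window (Cldn4 and Epcam) can be set beside 2 without it (Cldn3 and the outer start of Ocln). The claudin genes Cldn3 and Cldn4, both on chromosome 5, also varied differently between tumours, by 0.23 and 0.64 on the log2 scale from the lowest to the highest tumour. Epcam varied by 0.15, and Ocln, whose inner start does have the E-box in its window, by 0.47. Whether the E-box bears on this variation was not tested. Each run is the 250 bases before the RefSeq start in the mouse build GRCm38.p6, on the strand of the gene, 5′ to 3′. Capitals mark CACCTG read on either strand. The runs lie at chr5:134985964-134986213 (plus strand, Cldn3), chr5:134946935-134947184 (minus strand, Cldn4), chr17:87635729-87635978 (plus strand, Epcam) and chr13:100552719-100552968 (minus strand, the outer of the starts of Ocln).
Cldn3: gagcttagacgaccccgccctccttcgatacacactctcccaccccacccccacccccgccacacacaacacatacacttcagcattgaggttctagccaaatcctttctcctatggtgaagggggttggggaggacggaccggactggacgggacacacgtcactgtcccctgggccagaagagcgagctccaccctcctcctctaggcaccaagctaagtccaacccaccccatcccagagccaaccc
Cldn4: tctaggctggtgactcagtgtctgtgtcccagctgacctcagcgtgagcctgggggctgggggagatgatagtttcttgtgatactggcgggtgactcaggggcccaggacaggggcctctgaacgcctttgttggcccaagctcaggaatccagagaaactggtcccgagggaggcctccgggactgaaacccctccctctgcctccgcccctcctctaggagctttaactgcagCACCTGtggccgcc
Epcam: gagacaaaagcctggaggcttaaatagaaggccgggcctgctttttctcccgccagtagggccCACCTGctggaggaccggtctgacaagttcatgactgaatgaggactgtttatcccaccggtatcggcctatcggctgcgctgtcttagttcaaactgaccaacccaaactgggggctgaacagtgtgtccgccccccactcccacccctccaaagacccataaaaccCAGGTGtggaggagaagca
Ocln: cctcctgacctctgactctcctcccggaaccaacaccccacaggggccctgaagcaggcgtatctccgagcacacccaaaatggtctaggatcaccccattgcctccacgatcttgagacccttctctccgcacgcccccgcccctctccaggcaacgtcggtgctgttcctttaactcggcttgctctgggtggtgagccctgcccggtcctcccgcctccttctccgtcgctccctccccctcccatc

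The letters CACCTG were present once before Cldn4, at -14 from the start, and at -187 and -19 before Epcam, and were not in the windows shown for Cldn3 and Ocln. RefSeq promoter windows were at hand for 18 of the 35 genes, 25 windows in all, since some genes have several starts. Windows of the same gene can overlap, as those of Cldn12 do. Dsp and Jup were the only desmosome genes with a window, and no regulator had one, so the windows mostly describe tight junction genes. Of the 25 windows, 8 held CACCTG (32.0%), against 17.2% of all 32851 windows of this length. The genes with it were Cldn4, Cldn6, Cldn7, Epcam, F11r, Ocln (at its inner start) and Tjp3. Their genotype differences, SG-/- minus SG+/- on the log2 scale, had a median of 0.01 and ran from -0.26 to 0.27. In the other 11 genes the median was 0.03, and the range was -0.22 to 0.20. The Grainyhead element AACCGGTT, the letters preferred by Grhl2, was in 0 of the 25 windows and in 0.1% of all. A match of letters is a description and not a binding site.

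The targeted gene was lower in every SG-/- tumour. Srgn stood at 6.76, 6.43 and 6.35 in SG+/- replicates 1 to 3 and at 5.07, 5.04 and 4.89 in SG-/- replicates 1 to 3. This is a difference of -1.52 (standard error, SE, 0.15; limma adjusted p = 0.467, and exact two-sided permutation p = 0.1, a value that 3 against 3 samples cannot go below). Levels in the SG-/- tumours lie under 5.21, the median of genes for odorant and pheromone receptors, so this difference may understate the loss. Luminal markers were set against a dim level of 6.09, the 40th percentile of probe sets. All 9 lay above it, among them the keratin genes Krt8 and Krt18, as did 14861 of all 22180 genes. The 10 endothelial and 11 salivary gland markers all lay above it too, so passing this level does not identify the tissue. The arrays differed in contrast. These receptor genes (1394 measured) served as a set that a mammary tumour should not express. Their mean ran from 4.57 in SG-/- replicate 1 to 5.86 in SG-/- replicate 3, and the interquartile range of an array was 3.15 and 2.56 in the same tumours. In SG-/- replicate 3 bright genes therefore read lower and dim genes higher: it was the lowest tumour in 59.8% and the highest in 5.1% of the 10956 genes whose mean lay above 7.07, the 95th percentile of receptor genes, and the highest in 47.9% of the others.

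No junction gene passed the test between the genotypes. Of the 35 genes, 19 were higher and 16 lower in SG-/- tumours. Their median difference was 0.01, against -0.01 over all genes, of which 46.3% were higher. The differences ran from -0.40 for Pkp1 to 0.27 for Ocln. By limma, 0 of the 35 passed an adjusted p of 0.05 (0.0% of all 22180 genes passed) and 0 passed an unadjusted p of 0.05, against 2.11% of all genes (1.43% higher and 0.685% lower). Genotypes did not overlap in 1 gene on the higher side, Pkp3, and in 2 on the lower side, Cldn2 and Dsg2. Over all genes these shares were 2.84% and 3.19%, or 6.03% together, so the count of 3 in 35 lay near the background. The 95% confidence interval of the difference lay between -1 and 1, that is, within a 2-fold change either way, for 34 of the 35 genes, against 89.8% of all genes. Pkp1 was the exception. A p that misses the threshold does not show that the genotypes were alike, and the intervals give what these arrays could still hold.

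**Figure D1:**
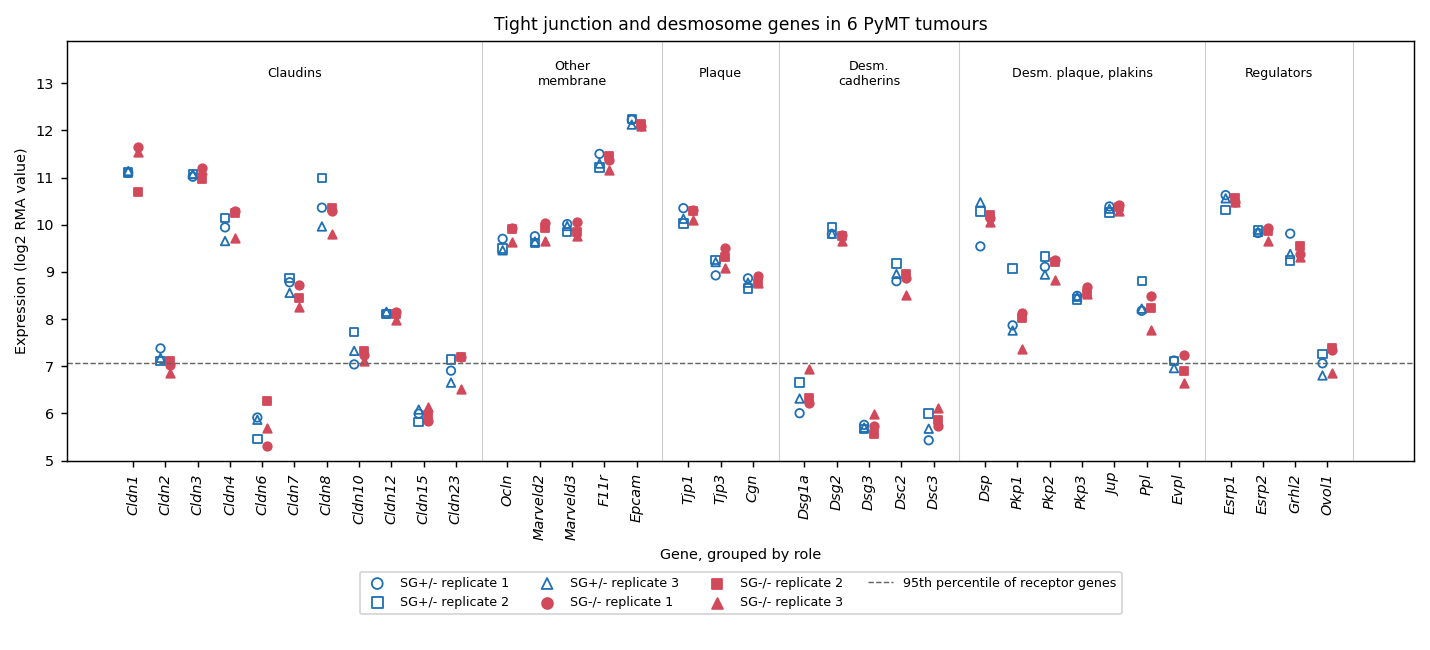
Log2 RMA value (vertical axis) of each of the 35 genes (horizontal axis, grouped by role) in the 3 SG+/- tumours (open blue symbols) and the 3 SG-/- tumours (filled red symbols); the dashed line is the 95th percentile of receptor genes, 7.07. Values of the genotypes overlap in all but 3 genes, and 7 genes lie on average at or under the dashed line.

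**Figure D2:**
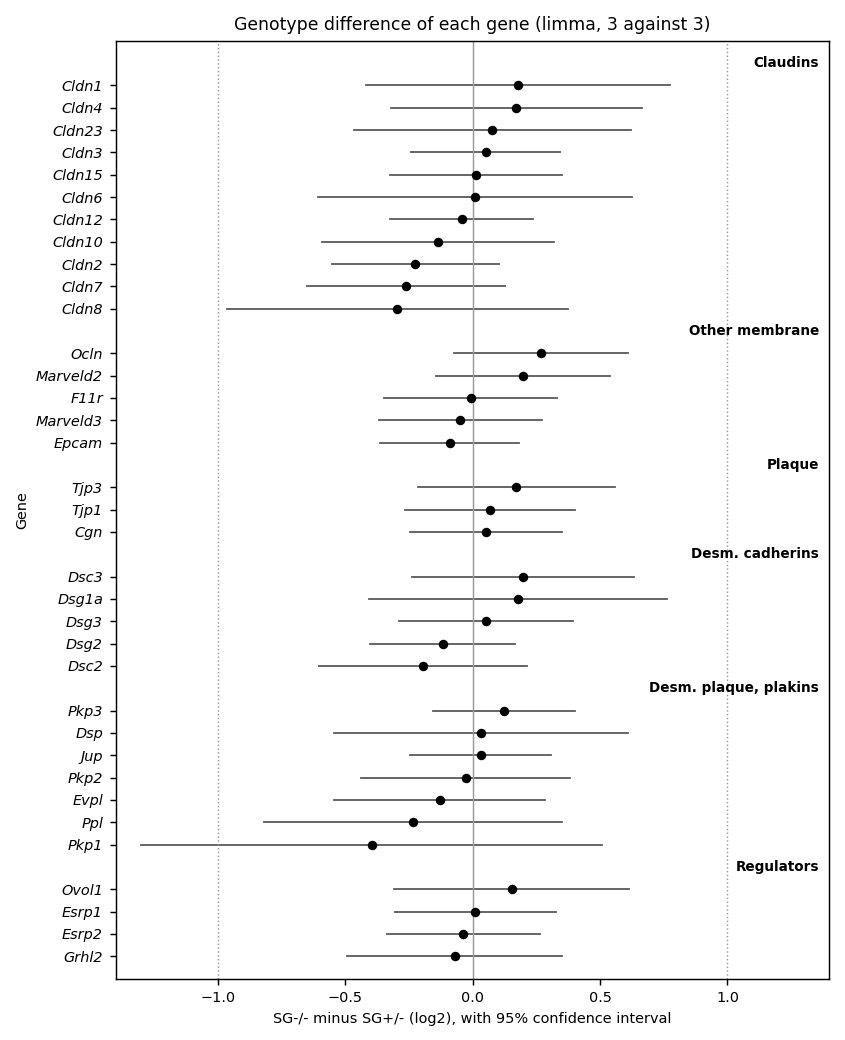
Difference SG-/- minus SG+/- on the log2 scale (horizontal axis) for each gene (vertical axis, by role), with the 95% confidence interval of the limma fit as a bar; dotted lines mark a 2-fold change either way. Every interval spans 0, and only that of Pkp1 crosses a dotted line.

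Of the 35 genes, 28 had a mean above the 95th percentile of receptor genes. The 7 at or under it were Cldn6, Cldn15, Cldn23, Dsg1a, Dsg3, Dsc3 and Evpl, and 4 of these, Cldn6, Cldn15, Dsg3 and Dsc3, also lay under the dim level. A value in this range cannot be told from that of a silent gene, and a true difference may be understated. Values of different probe sets depend on their probes, so levels are compared within a gene and not between genes. In whole tissue, fewer cells of a type and less RNA per cell cannot be told apart.

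Among the claudins, 6 of 11 were higher and 5 lower, with a median difference of 0.01. Cldn1, which builds barriers in many epithelia and in skin, stood at 11.10, 11.11 and 11.14 in SG+/- replicates 1 to 3 and at 11.65, 10.69 and 11.54 in SG-/- replicates 1 to 3. The SG+/- tumours were thus nearly identical (SD 0.02, n = 3) while the SG-/- tumours spread around them (SD 0.52, n = 3), with SG-/- replicate 2 the lowest of all 6. The difference was 0.18 (SE 0.25), and without SG-/- replicate 2 it was 0.48 (limma unadjusted p = 0.0164, adjusted p = 1.0). Without SG-/- replicate 1 it was 0.0005, and without SG-/- replicate 3 it was 0.05. Cldn3 followed the same order of SG-/- tumours on a smaller scale, at 11.19, 10.97 and 11.16 against 11.02, 11.07 and 11.07 in SG+/- tumours.

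Cldn8, a claudin of tight epithelia, had the largest difference of its class. It stood at 10.36, 10.99 and 9.96 in SG+/- replicates 1 to 3 and at 10.28, 10.35 and 9.80 in SG-/- replicates 1 to 3. SG+/- replicate 2 was the highest tumour, and the genotypes overlapped otherwise. The difference was -0.30 (SE 0.28), and -0.02 without SG+/- replicate 2. Cldn7, a partner of Epcam at the basolateral membrane, was 8.78, 8.87 and 8.55 in SG+/- and 8.71, 8.45 and 8.26 in SG-/- tumours, a difference of -0.26 (SE 0.17, limma unadjusted p = 0.158). All 3 SG-/- values lay under the SG+/- mean of 8.74, but SG-/- replicate 1 lay above SG+/- replicate 3.

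Cldn2, which forms cation pores in leaky epithelia, was one of the genes without overlap. It stood at 7.38, 7.11 and 7.18 in SG+/- tumours and at 7.03, 7.11 and 6.86 in SG-/- tumours. The gap was 7.108 against 7.105 between SG+/- replicate 2 and SG-/- replicate 2, so that the separation was slight. The difference was -0.22 (SE 0.14, limma unadjusted p = 0.15), and its level lay close to the upper range of receptor genes. Cldn4, a sealing claudin, stood at 9.94, 10.14 and 9.65 in SG+/- and 10.29, 10.25 and 9.71 in SG-/- tumours, with a difference of 0.17 (SE 0.21), or 0.04 with SG+/- replicate 3 left out and 0.36 with SG-/- replicate 3 left out. SG-/- replicates 1 and 2 were the highest tumours and SG-/- replicate 3 lay with the lowest SG+/- tumour.

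The remaining claudins varied around small differences. Cldn10, a channel-forming claudin, was highest in SG+/- replicate 2 at 7.72 and between 7.04 and 7.33 in the other tumours (difference -0.14). Cldn12 kept within 0.18 over all 6 tumours, from 7.98 to 8.16 (difference -0.04). Cldn23 stood at 7.20 in both SG-/- replicates 1 and 2 and 6.53 in SG-/- replicate 3, against 6.90, 7.14 and 6.65 in SG+/- tumours. Cldn6, an embryonic claudin, ran from 5.31 in SG-/- replicate 1 to 6.26 in SG-/- replicate 2, and Cldn15 from 5.82 to 6.14, both within the range of silent genes.

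The other membrane proteins held the largest difference toward SG-/- tumours. Ocln encodes occludin, a strand protein of the same family as Marveld2 (tricellulin) and Marveld3. Ocln stood at 9.70, 9.50 and 9.46 in SG+/- replicates 1 to 3 and at 9.92, 9.91 and 9.62 in SG-/- replicates 1 to 3. All 3 SG-/- values lay above the SG+/- mean of 9.55, and the overlap came from SG-/- replicate 3, which lay under SG+/- replicate 1. The difference was 0.27 (SE 0.15) and a 95% interval from -0.07 to 0.61 (limma unadjusted p = 0.106, adjusted p = 1.0), a 1.20-fold change. It had the smallest p of the 35 genes and ranked 1169 of 22180. Without SG-/- replicate 3, the array of lowest contrast, the difference was 0.37 (limma unadjusted p = 0.0255, adjusted p = 0.833). This was the largest value when each mouse was left out in turn, and the smallest was 0.215, without SG-/- replicate 1.

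Marveld2, which seals the corners between several cells, was also highest in SG-/- replicates 1 and 2. It stood at 9.76, 9.62 and 9.64 in SG+/- and at 10.03, 9.93 and 9.65 in SG-/- tumours, with SG-/- replicates 1 and 2 above all SG+/- tumours. The difference was 0.20 (SE 0.14), and 0.31 without SG-/- replicate 3 (limma unadjusted p = 0.032, adjusted p = 0.867). Without SG-/- replicate 1 it was 0.117. Marveld3 did not follow: it ran from 9.76 to 10.07 and differed by -0.05.

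Epcam, the adhesion molecule used as a label of carcinoma epithelium, was among the steadiest genes on the arrays. It stood at 12.22, 12.24 and 12.12 in SG+/- tumours and at 12.09, 12.14 and 12.09 in SG-/- tumours. Its spread within genotypes (SD 0.05) was smaller than in all but 0.9% of genes. The difference was -0.09 with a 95% interval from -0.36 to 0.18. F11r, which encodes the junctional adhesion molecule JAM-A, ran from 11.16 to 11.50 and differed by -0.01.

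In the tight junction plaque, all 3 genes were slightly higher in SG-/- tumours, by 0.05 to 0.17. Tjp1 encodes ZO-1, the scaffold that anchors claudins. It stood at 10.35, 10.02 and 10.13 in SG+/- and at 10.31, 10.29 and 10.11 in SG-/- tumours, a difference of 0.07 (SE 0.14) and full overlap. Tjp3, encoding ZO-3, stood at 8.92, 9.25 and 9.21 in SG+/- and 9.51, 9.31 and 9.09 in SG-/- tumours, a difference of 0.17 (SE 0.16). SG+/- replicate 1 was the lowest tumour for Tjp3 but the highest for Tjp1. Cgn, encoding cingulin, ran from 8.65 to 8.91 and differed by 0.05. Without SG+/- replicate 2 the class median of 0.07 was -0.003.

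Of the desmosomal cadherins, only Dsg2 and Dsc2, the pair found in simple epithelia, lay above the range of silent genes. Dsg2 stood at 9.80, 9.95 and 9.81 in SG+/- and at 9.79, 9.77 and 9.66 in SG-/- tumours. The genotypes did not overlap, but the gap was small, from 9.785 in SG-/- replicate 1 to 9.803 in SG+/- replicate 1. The difference was -0.12 (SE 0.12, limma unadjusted p = 0.363). Dsg2 was the 1 gene of the list with a second probe set, which had a lower mean (6.33) and differed by -0.003. Averaging both gave a difference of -0.06 and ended the separation. Dsc2 stood at 8.80, 9.18 and 8.96 in SG+/- and at 8.88, 8.96 and 8.51 in SG-/- tumours, a difference of -0.19 (SE 0.17), or -0.06 with SG-/- replicate 3 left out and -0.09 with SG+/- replicate 2 left out.

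Dsg1a, Dsg3 and Dsc3, the cadherins of basal and stratified epithelium, each read highest in SG-/- replicate 3. For Dsc3 the values were 5.43, 6.00 and 5.67 in SG+/- and 5.74, 5.85 and 6.10 in SG-/- tumours, a difference of 0.20 (SE 0.19). Dsg1a was 6.95 in SG-/- replicate 3 and 6.00 to 6.65 elsewhere, and Dsg3 was 5.98 there and 5.57 to 5.76 elsewhere. That array also had the highest receptor mean, 5.86, and was the highest tumour in 47.9% of all genes at this level. What part this had in the 3 genes was not tested. Dsg1a belongs to a cluster of similar genes, and whether its probes also bind these relatives was not examined. The related Dsg1b, Dsg1c, Dsg4 and Dsc1 had means between 4.75 and 5.21.

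Among the desmosomal plaque genes, the range over the 6 tumours ran from 0.15 for Jup to 1.72 for Pkp1. Jup, encoding plakoglobin, which links the cadherins to desmoplakin, stood at 10.39, 10.26 and 10.34 in SG+/- and at 10.41, 10.37 and 10.30 in SG-/- tumours, a difference of 0.03 with a 95% interval from -0.25 to 0.31. Pkp3, a plakophilin of most epithelia, was the gene without overlap on the higher side, at 8.49, 8.41 and 8.47 in SG+/- and 8.67, 8.55 and 8.52 in SG-/- tumours. The gap between the nearest tumours was 8.491 against 8.524, and the difference 0.12 (SE 0.12, limma unadjusted p = 0.329). Dsp, encoding desmoplakin, differed by 0.03, while SG+/- replicate 1 stood alone at 9.54 and the other 5 tumours between 10.05 and 10.47. Pkp2 ran from 8.83 to 9.33 and differed by -0.03.

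Pkp1, the plakophilin of stratified and basal epithelium, had the largest difference of the list and the largest range over the tumours. It stood at 7.87, 9.07 and 7.76 in SG+/- replicates 1 to 3 and at 8.12, 8.03 and 7.36 in SG-/- replicates 1 to 3. SG+/- replicate 2 was far above every other tumour, and the other SG+/- tumours lay inside the SG-/- range. The difference was -0.40 (SE 0.38) and a 95% interval from -1.30 to 0.51, and without SG+/- replicate 2 it was 0.03. The plakins Ppl (periplakin) and Evpl (envoplakin), which also build the envelope of cornified cells, differed by -0.23 and -0.13. Ppl was also highest in SG+/- replicate 2, at 8.81, against 7.77 to 8.49 in the other tumours, and its difference was -0.03 without that tumour. Evpl was highest in SG-/- replicate 1 (7.24) and lowest in SG-/- replicate 3 (6.65).

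The regulators were close to level. Esrp1 and Esrp2 encode splicing factors that keep epithelial isoforms. Esrp1 stood at 10.63, 10.31 and 10.56 in SG+/- and at 10.49, 10.56 and 10.48 in SG-/- tumours, a difference of 0.01 with a 95% interval from -0.31 to 0.33. Esrp2 ran from 9.66 to 9.93 and differed by -0.04. Grhl2, a Grainyhead factor that activates claudin and cadherin genes in epithelium, was 9.81 in SG+/- replicate 1 and 9.24 to 9.54 in the other tumours (difference -0.07). Ovol1, a zinc finger factor that restrains mesenchymal genes, stood at 7.06, 7.26 and 6.80 in SG+/- and at 7.34, 7.39 and 6.86 in SG-/- tumours, a difference of 0.15 (SE 0.20). As in Cldn4 and Cldn23, SG-/- replicates 1 and 2 were the highest tumours.

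**Figure D3:**
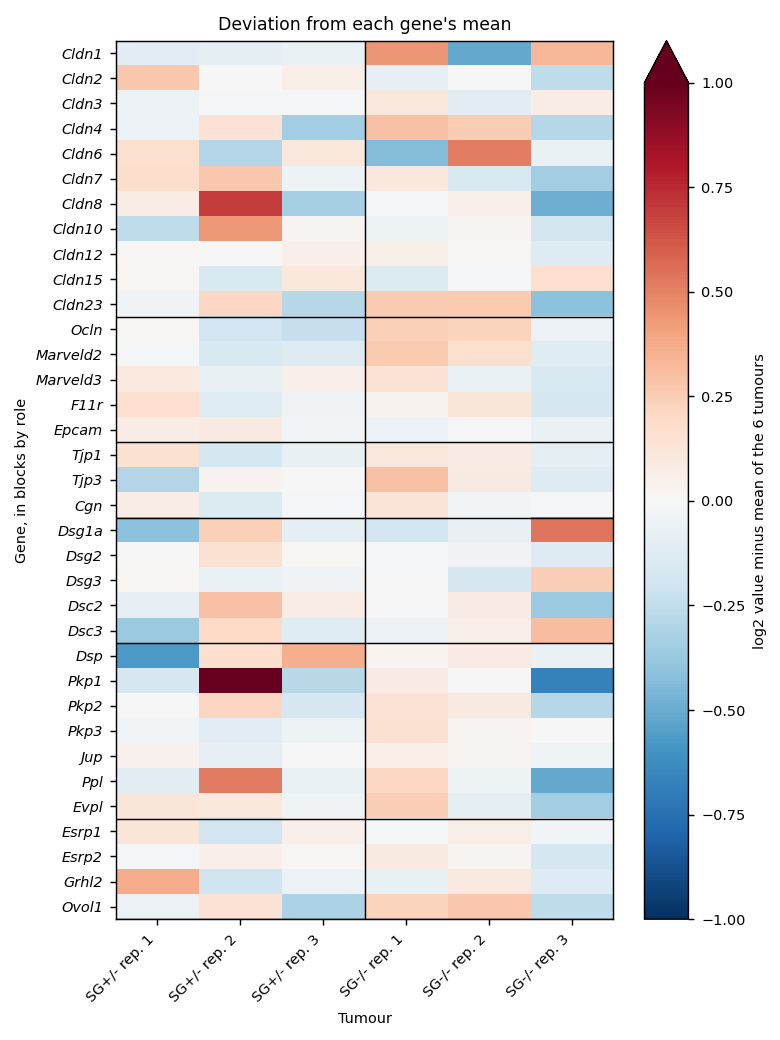
Deviation of each tumour (columns, SG+/- left and SG-/- right of the line) from the mean of the 6 tumours for each gene (rows, in blocks by role), in log2 units by colour; Pkp1 in SG+/- replicate 2 lies past the top of the scale. SG-/- replicate 3 is the lowest tumour in 42.9% of the 35 genes, against 34.3% of all genes, and SG-/- replicate 1 the highest in 13 of the 35, against 4445 of all 22180 genes. These shares depend on level. Among the 28 genes with a mean above 7.07, SG-/- replicate 3 is the lowest in 46.4%, against 59.8% of all genes at that level. SG-/- replicate 1 is the highest in 42.9% of the 28, against 27.0%.

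The tumours took unequal shares of the highest and lowest values, in these genes and over all genes. SG-/- replicate 1 was the highest tumour in 13 of 35 genes and the lowest in 1, while SG-/- replicate 3 was the lowest in 15 and the highest in 4. Among the 28 genes above the range of silent genes, SG-/- replicate 3 was the lowest in 46.4%, against 59.8% of all genes at that level, and SG-/- replicate 1 was the highest in 42.9%, against 27.0%. SG+/- replicate 2 was the highest in 9 of these 28 genes (32.1%), against 19.6% of all genes at that level. The 9 were Cldn7, Cldn8, Cldn10, Epcam, Dsg2, Dsc2, Pkp1, Pkp2 and Ppl. The median spread within a genotype was 0.15 (SD) for the 28 genes and 0.19 for all genes at that level.

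Some markers of other epithelial cells moved with some of these patterns, and others did not. Those shown were chosen after the values were seen. Krt17, a basal keratin, stood at 8.26, 9.55 and 7.92 in SG+/- and 7.96, 8.44 and 7.64 in SG-/- tumours, and Krt14, also basal, at 8.26, 9.38 and 7.98 against 9.05, 8.62 and 8.27. Both were highest in SG+/- replicate 2, as were Pkp1, Ppl, Cldn8 and Dsc2. Of the 8 matched members of the same basal and myoepithelial list, only Krt17 and Krt14 were highest there. The other 6 were highest in SG-/- replicate 2, among them the smooth muscle gene Acta2 at 12.40 and the basal factor Trp63 at 8.05. Over all 8 matched members of that list, the median deviation from the gene means was -0.40, 0.15 and -0.05 in SG+/- and 0.16, 0.92 and -0.53 in SG-/- replicates 1 to 3. Their part in the junction genes was not tested.

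Ocln, Marveld2, Cldn4, Cldn23 and Ovol1 were highest in SG-/- replicates 1 and 2. When limma array weights were used, these 5 of the 35 genes had an unadjusted p under 0.05. So did 2569 of all 22180 genes with the same weights, so the count of 5 is not read as a result about the junction genes. With those weights Ocln differed by 0.39 (limma unadjusted p = 0.00453, adjusted p = 0.263), Cldn4 by 0.42, Ovol1 by 0.41, Cldn23 by 0.37 and Marveld2 by 0.28. These weights come from the same data and favoured SG-/- replicate 2 (4.95) over SG-/- replicate 3 (0.20). Krt19 and Foxa1 were chosen after their values were seen. The luminal keratin Krt19 stood at 9.46, 8.57 and 8.79 in SG+/- and 10.07, 10.03 and 9.37 in SG-/- tumours, and the luminal factor Foxa1 at 8.07, 8.16 and 8.65 against 9.80, 9.90 and 7.86. Of the 9 luminal markers, 6 were higher in SG-/- tumours (median 0.07), and 1 of them, Krt19, had an unadjusted p under 0.05 (limma unadjusted p = 0.0176). The other luminal markers differed among themselves, and Elf5 and Gata3 were highest in SG+/- replicate 1 and Prom1 in SG+/- replicate 3. Over the 9 markers the median deviation from the gene means was -0.03, -0.24 and -0.03 in SG+/- and 0.16, 0.04 and -0.08 in SG-/- replicates 1 to 3. Their part in the 5 genes was not tested.

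**Figure D4:**
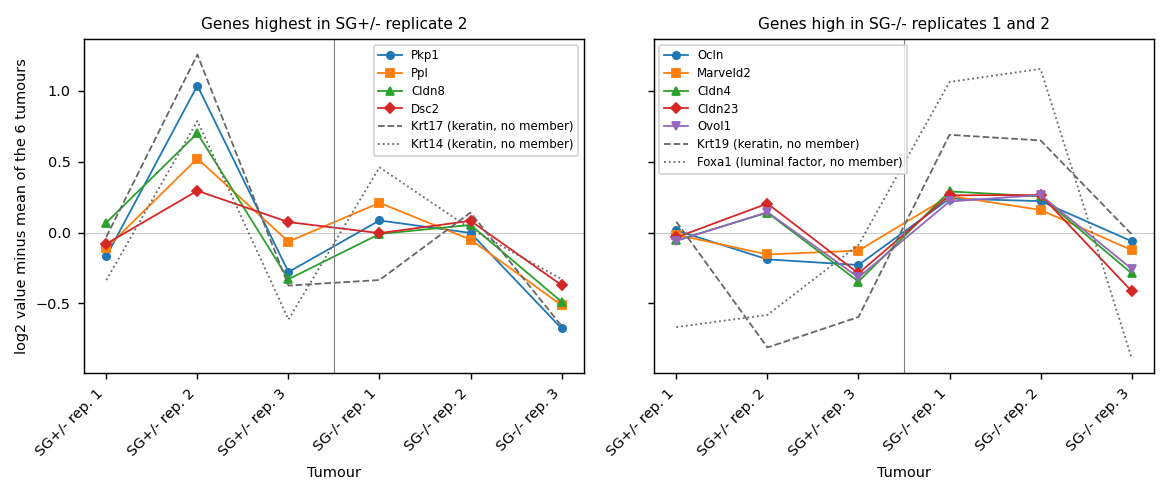
Deviation from the mean of the 6 tumours in log2 units (vertical axis) in each tumour (horizontal axis), for 4 genes highest in SG+/- replicate 2 (left) and 5 genes high in SG-/- replicates 1 and 2 (right); grey lines are markers outside the list, and lines only join the values of 1 gene. Pkp1 peaks with Krt17 and Krt14 in SG+/- replicate 2, and the 5 genes on the right fall under their means in SG-/- replicate 3. The genes and markers drawn were chosen after their values were seen, and the 4 on the left are among 9 brighter junction genes highest in that tumour. Of the 8 basal and myoepithelial markers, 6 were highest in SG-/- replicate 2. Of the 9 luminal markers, 5 were highest in SG-/- replicate 1.

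Other junction genes were counted in the same way. Of 13 other claudins measured, 7 were higher and 6 lower in SG-/- tumours, and 1 had an unadjusted p under 0.05. This was Cldn5, the claudin of endothelial cells, at 6.17, 6.12 and 6.30 in SG+/- and 6.69, 6.71 and 6.30 in SG-/- tumours, 0.37 higher (limma unadjusted p = 0.0456, adjusted p = 1.0). Genotypes did not overlap, by a gap of 6.298 to 6.305, and the values lie in the range of silent genes. All 10 endothelial markers were also higher, with a median difference of 0.37. Cldn19 had the highest mean of the other claudins and differed by -0.10.

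Of 23 other tight junction, adhesion molecule and polarity genes, 9 were higher, 14 lower and 0 had an unadjusted p under 0.05. The smallest p was that of Jam2, a junctional adhesion molecule, at 8.93, 9.73 and 8.64 in SG+/- and 8.55, 8.83 and 8.40 in SG-/- tumours (difference -0.51, standard error 0.29). It too peaked in SG+/- replicate 2. St14, encoding the epithelial protease matriptase, had the highest mean and differed by -0.003. Of 15 other desmosome and hemidesmosome genes, 6 were higher and 9 lower, and 0 had an unadjusted p under 0.05. Itga6, the integrin chain of hemidesmosomes, had the smallest p and differed by -0.21, while Krt8, which desmosomes anchor in luminal cells, was 0.13 higher without overlap.

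Of 10 other epithelial regulators, 4 were higher, 6 lower and 0 had an unadjusted p under 0.05. Trp63, the basal factor p63, was 0.35 higher (SE 0.20), and Ehf, an epithelial Ets factor, differed by -0.19. Of 8 adherens junction genes, 5 were higher and 3 lower, with 0 past that p. Ctnnb1, encoding beta-catenin, differed by -0.20, and Cdh1, the E-cadherin that adherens junctions are built on, by 0.004.

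Markers of non-epithelial cells were counted beside the junction genes. All members measured were higher in SG-/- tumours for endothelium (10 genes, median 0.37), fibroblasts (10 genes, median 0.55), leukocytes (8 genes, median 0.40) and adipocytes (7 genes, median 0.36), with an unadjusted limma p under 0.05 in 2, 3, 3 and 1 of them. Over all genes, 46.3% were higher, and 1.43% were higher with that p. SG-/- replicate 1 was the highest tumour in 9 of the 10 endothelial, 9 of the 10 fibroblast and 7 of the 8 leukocyte genes, and the fibroblast median deviation was 0.95, -0.08 and 0.08 in SG-/- replicates 1 to 3. Example values are those of Pecam1, 0.35 higher, Ptprc, 0.42, and Col1a1, 0.38. With SG-/- replicate 1 left out these were 0.20, 0.26 and -0.03. The fibroblast genes differed in this. When each mouse was left out in turn, Pdgfra and Thy1 reached -0.14 and -0.08. The lowest values of Dcn, Fap and Postn, the 3 with that p, were 0.64, 0.44 and 0.49. Adipoq was 0.21 higher, and 0.02 higher with SG+/- replicate 2 left out. These lists are in part those for which earlier results on the same arrays were known. Of the 35 junction genes 19 were higher, with a median of 0.01. The difference between these lists and the junction genes was not tested.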

How the data were processed

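The authors deposited 1 log2 value per probe set and array, made with the robust multi-array average (RMA), per the series description. Named tools, per the submitters' processing notes, are RMA, limma and Affymetrix Expression Console, with no versions. RMA includes a quantile normalization step, so values are relative within an array. The deposited values still differed in distribution, with an interquartile range from 2.56 in SG-/- replicate 3 to 3.15 in SG-/- replicate 1. The 6 arrays held 33793 probe sets with 0 missing values. The platform table gave 1 symbol to 23521 probe sets, several to 1814 and none to 8458, and 1082 of the 22180 genes had more than 1 probe set. Of 188 list entries, 4 were matched through RefSeq synonyms (GRCm38.p6), whose promoter table gave the sequences.

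The genotype difference (SG-/- minus SG+/-) was fitted by limma 3.58.1 under R 4.3.3 (lmFit, then eBayes) over all 22180 genes. Tests were two-sided, and p-values were adjusted by Benjamini-Hochberg with a threshold of 0.05. The fit was tested on simulated data. Figures used matplotlib 3.10.9. The members and lists were chosen with earlier results of these data known, so lists are given as counts and medians without a test. All 35 members are named; values in every tumour are given for members without overlap, with an unadjusted p under 0.05, or with the highest mean or largest difference of their role, and for others of note chosen after their values were seen. Of each other junction list, the genes with the smallest p and the highest mean are named. Alternatives were a filter on dim genes, quantile normalization again, centring on brighter genes, eBayes with trend and robust settings, array weights, the mean of all probe sets, the receptor mean as a covariate, and leaving out each mouse.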

Additional observations from a re-analysis of the deposited data

How the results depend on the processing

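Over 13 alternatives, 0 of the 35 junction genes passed an adjusted p of 0.05 in limma, the smallest being 0.263, for Ocln with array weights. The direction of 13 genes held under all alternatives in which they were tested, among them Ocln, Marveld2, Cldn2, Cldn4, Cldn7, Dsg2, Epcam and Pkp3. It turned in 22 genes under at least 1, and in each the cause was not tested. With array weights the difference was -0.25 for Cldn1, -0.051 for Cldn3, 0.052 for Cldn8, -0.059 for Cldn15, 0.107 for F11r, -0.097 for Dsg3, -0.049 for Dsp, 0.143 for Pkp2, 0.014 for Esrp2 and 0.065 for Grhl2. With quantile normalization again it was -0.0013 for Cldn15, -0.016 for Cldn23, 0.036 for F11r, 0.020 for Pkp2 and 0.0093 for Esrp2, and with arrays centred on brighter genes 0.031 for F11r, 0.013 for Pkp2 and 0.0032 for Esrp2.

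Leaving out each mouse in turn gave a range from -0.633 to 0.025 for Pkp1, -0.246 to 0.230 for Cldn6, -0.299 to 0.044 for Cldn10, -0.080 to 0.011 for Cldn12, -0.068 to 0.086 for Cldn15, -0.047 to 0.303 for Cldn23, -0.134 to 0.017 for Marveld3 and -0.071 to 0.074 for F11r. It gave -0.0029 to 0.160 for Tjp1, -0.0034 to 0.104 for Cgn, -0.045 to 0.342 for Dsg1a, -0.058 to 0.149 for Dsg3, -0.244 to 0.223 for Dsp, -0.119 to 0.107 for Pkp2, -0.0032 to 0.063 for Jup and -0.285 to 0.012 for Evpl. The ranges were -0.083 to 0.074 for Esrp1, -0.093 to 0.041 for Esrp2, -0.189 to 0.097 for Grhl2 and -0.051 to 0.085 for the median of the regulators. With dim genes left out, the median of the 3 desmosomal cadherins that stayed was -0.117.

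The junction genes with an unadjusted p under 0.05 numbered 5 with array weights, 2 with quantile normalization again, 1 with centring on brighter genes, and 0 to 2 when a mouse was left out. Those without overlap numbered 7 with quantile normalization again and 4 to 9 when a mouse was left out, where fewer tumours overlap less. The share over all genes was not taken for these overlap counts. It is also not given for the p counts with quantile normalization again and with centring. None of these counts is therefore read as a result about the junction genes. Over all genes, those with an unadjusted p under 0.05 numbered 2569 with array weights, 1038 with the receptor mean as a covariate and 327 to 1200 when a mouse was left out. With that covariate 1 gene passed the adjusted p, Srgn at -1.53 (limma adjusted p = 0.0446), and 0 to 1 passed when a mouse was left out. No paired analysis was possible because the labels name no pairs of mice, and the replicate numbers were assigned here. Dim signal limits Cldn6, Cldn15, Dsg3 and Dsc3, which a filter on dim genes removes.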

Other observations

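Markers of tissues that can lie beside a mammary tumour were counted too. Of 13 genes of stratified skin epithelium, 6 lay above the dim level and 5 were higher in SG-/- tumours (median -0.02). Krt1, a keratin of skin, ran from 5.72 to 6.40. Of 11 salivary gland genes, 8 were higher in SG-/- tumours and 3 lower, with an unadjusted limma p under 0.05 in 3 and 1 of them (median 0.59). Over all genes, 1.43% were higher and 0.685% lower with that p. The salivary list, like the others, was chosen with earlier results of these data known. They did not share 1 pattern. Bpifa2, the parotid secretory protein, stood at 13.5 and 13.6 in SG-/- replicates 1 and 3, at 7.26 in SG-/- replicate 2 and between 5.98 and 6.47 in SG+/- tumours. Prol1 was high in SG-/- replicates 1 and 2, at 10.40 and 10.86, and stood at 6.40 in SG-/- replicate 3, while Dcpp2 differed by -2.54 and Smr2 was lowest in SG-/- replicate 1, at 5.57. Bpifa2, Prol1, Dcpp2 and Smr2 were chosen after their values were seen.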
